A study of Homo sapiens with 12 samples.

Results

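The genes described here are 54 that code for RNA polymerase I and for the proteins that assemble ribosomes, a list chosen by name. A gene was read through its probe set with the highest mean over the 12 arrays, among the probe sets annotated to that symbol alone. In this way 48 of the 54 were measured, of 19775 genes in all, and all 48 passed the filter on dim genes that left 14283 to test. By role, 7 belong to RNA polymerase I and its factors, 1 to RNA polymerase III, 6 of 8 listed to the small nucleolar ribonucleoproteins (snoRNPs), 4 to abundant nucleolar proteins and a helicase, 18 to small-subunit assembly and 12 of 16 listed to large-subunit assembly. NOP56, DKC1, BOP1 and PPAN had only probe sets that name several genes, and GNL3 and DDX18 had none listed under their symbols, so these 6 are not analysed here.

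RCC4 and UMRC2 are established lines of human kidney cancer, described by the submitters as low in their own FoxO1 and FoxO3. Each line stably carried FoxO3(TA)ERT2, FoxO1(TA)ERT2 or the modified estrogen receptor moiety ERT2 alone, called EV, and all were kept under puromycin. In both fusions the 3 serine or threonine sites for AKT are alanines, and 4-hydroxytamoxifen (4OHT) moves the fusion from the cytoplasm into the nucleus. Cells received 100 nM 4OHT or ethanol as vehicle for 12 h, and each of the 12 combinations was put on 1 Affymetrix U133 Plus 2.0 array. There is no repeat culture of any combination, so the 2 lines stand as the replicates of a construct, and precision is limited by how few arrays there are. The promoter that drives the constructs and the number of clones behind each line are not given in the sources used here.

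Ribosomes are built in the nucleolus. RNA polymerase I copies the ribosomal DNA into a long precursor, snoRNPs guide chemical changes on it, and a large number of assembly factors fold, cut and export the small and the large subunit. Growing cells spend much of their transcription on this work, and MYC and mTORC1 signalling are known to raise it. FoxO factors, which AKT keeps out of the nucleus, are known for opposing growth-factor signalling, in kidney cancer as elsewhere.

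Levels below are log2 intensities after quantile normalisation, so a step of 1 is 2-fold, and a response is the level with 4OHT minus the level with vehicle in the same engineered line. As deposited the arrays lay at unlike levels. Their medians ran from 71.1 to 138.7, and the spike-in controls averaged 4212 to 4699 in 5 RCC4 arrays, 2515 in the RCC4 FoxO3 array with 4OHT and 2239 to 2463 in the UMRC2 arrays. The RCC4 FoxO3 pair is therefore the 1 pair whose arrays fall in different ranges of spike-in level. What set these levels is not given in the sources used here. Of 7 markers of kidney epithelium or renal carcinoma measured, 5 (PAX8, CDH16, KRT8, KRT18, VIM) lay above the array median in every array. The leukocyte genes PTPRC and CD14 and the endothelial genes CDH5 and VWF did so in none. Of the same lists, the leukocyte gene CD3E lay above the array median in 9 arrays, with levels of 5.69 to 7.77, and the endothelial gene PECAM1 in all 12, with 8.19 to 8.79. The estrogen receptor part, read through 5 of 9 ESR1 probe sets chosen because they were at least log2 2 above EV in every fusion line, had a vehicle median of 12.42 and 13.15 in RCC4 and UMRC2 FoxO3 cells, 9.17 and 12.22 in FoxO1 cells, and 5.24 and 4.59 in EV cells. The gap to EV is set by how these probe sets were chosen. The EV levels lie nearer the floor of 4.17, but this choice favours probe sets that read low in EV cells. They therefore cannot test whether EV cells carry the ERT2 moiety.

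The stretches around the transcription start of a few members show where the letters CACGTG lie in some of their promoters and that others lack them. Each runs from 50 bases before to 25 bases after the start of the gene, 5′ to 3′ on its own strand, and comes from RefSeq on GRCh38.p14. Capitals mark CACGTG, the palindromic E-box to which MYC with its partner MAX is known to bind. The E-box genes shown are a selection, and each was lower under FoxO than under EV in the test below. Of the 17 members with CACGTG in a longer window only 9 were, so the stretches do not show that an E-box goes with a drop. The first 3 are large-subunit genes with an E-box just after the start: NLE1 (chr17:35142279-35142353, minus strand), MRTO4 (chr1:19251755-19251829, plus strand) and PES1 (chr22:30591886-30591960, minus strand).
NLE1: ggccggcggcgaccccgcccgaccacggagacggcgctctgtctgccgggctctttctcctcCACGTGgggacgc
MRTO4: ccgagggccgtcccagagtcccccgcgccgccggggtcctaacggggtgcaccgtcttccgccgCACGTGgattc
PES1: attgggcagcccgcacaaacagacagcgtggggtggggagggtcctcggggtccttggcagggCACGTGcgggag
The next 3 are small-subunit genes whose E-box lies just before the start: UTP4 (chr16:69132599-69132673, plus strand), UTP20 (chr12:101280055-101280129, plus strand) and NAT10 (chr11:34105579-34105653, plus strand).
UTP4: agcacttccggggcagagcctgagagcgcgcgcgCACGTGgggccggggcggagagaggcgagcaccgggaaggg
UTP20: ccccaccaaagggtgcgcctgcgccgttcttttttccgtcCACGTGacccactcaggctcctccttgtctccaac
NAT10: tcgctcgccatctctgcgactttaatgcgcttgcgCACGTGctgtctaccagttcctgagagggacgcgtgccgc
The last 2, POLR1B (chr2:112541986-112542060, plus strand) and TSR1 (chr17:2336433-2336507, minus strand), hold none and are shown because they are the members with the lowest values of their groups.
POLR1B: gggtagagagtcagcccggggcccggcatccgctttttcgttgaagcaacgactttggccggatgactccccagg
TSR1: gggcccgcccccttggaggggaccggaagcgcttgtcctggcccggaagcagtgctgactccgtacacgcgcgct

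Over the full RefSeq windows, which run from 250 bases before to 50 after a start, CACGTG occurred in 17 of the 42 members that have a window (40.5%), against 1137 of 11454 tested genes (9.93%) and 2548 of 35116 windows in all (7.26%). The motif is its own reverse complement, so both strands are covered at once. All 17 members had a copy within 50 bases of the start. It was found in 10 of 17 small-subunit genes, 5 of 11 large-subunit genes and 2 of 4 snoRNP genes, but in 0 of 6 RNA polymerase I genes and 0 of 4 abundant nucleolar genes. The forkhead letters GTAAACA, searched on both strands, occurred in 1 member window, that of NOP14 (2.38%), against 2.51% of tested genes and 3.42% of all windows. A match describes the letters in the window and nothing about binding.

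Nearly the whole set was lower after 4OHT in the fusion lines and close to vehicle in the EV lines. In FoxO3 cells 47 of 48 members in RCC4 and 48 of 48 in UMRC2 lay below vehicle, against 54.8% and 52.5% of all genes, with median responses of -1.10 and -1.22. In FoxO1 cells 44 and 45 lay below, against 51.9% and 51.1% of all genes, with medians of -0.37 in RCC4 and -0.62 in UMRC2. In EV cells 16 and 23 lay below, against 49.7% and 48.6% of all genes, with medians of 0.03 in RCC4 and 0.01 in UMRC2. Over all genes tested the medians were between -0.08 and 0.005. Drops of at least 2-fold, log2 1, were seen for 26 members in RCC4 FoxO3 cells (12.1% of all genes), 30 in UMRC2 FoxO3 cells (10.8%), 4 in RCC4 FoxO1 cells (3.86%), 8 in UMRC2 FoxO1 cells (4.26%), and 0 in either EV line (2.36% and 2.45%).

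**Figure D1:**
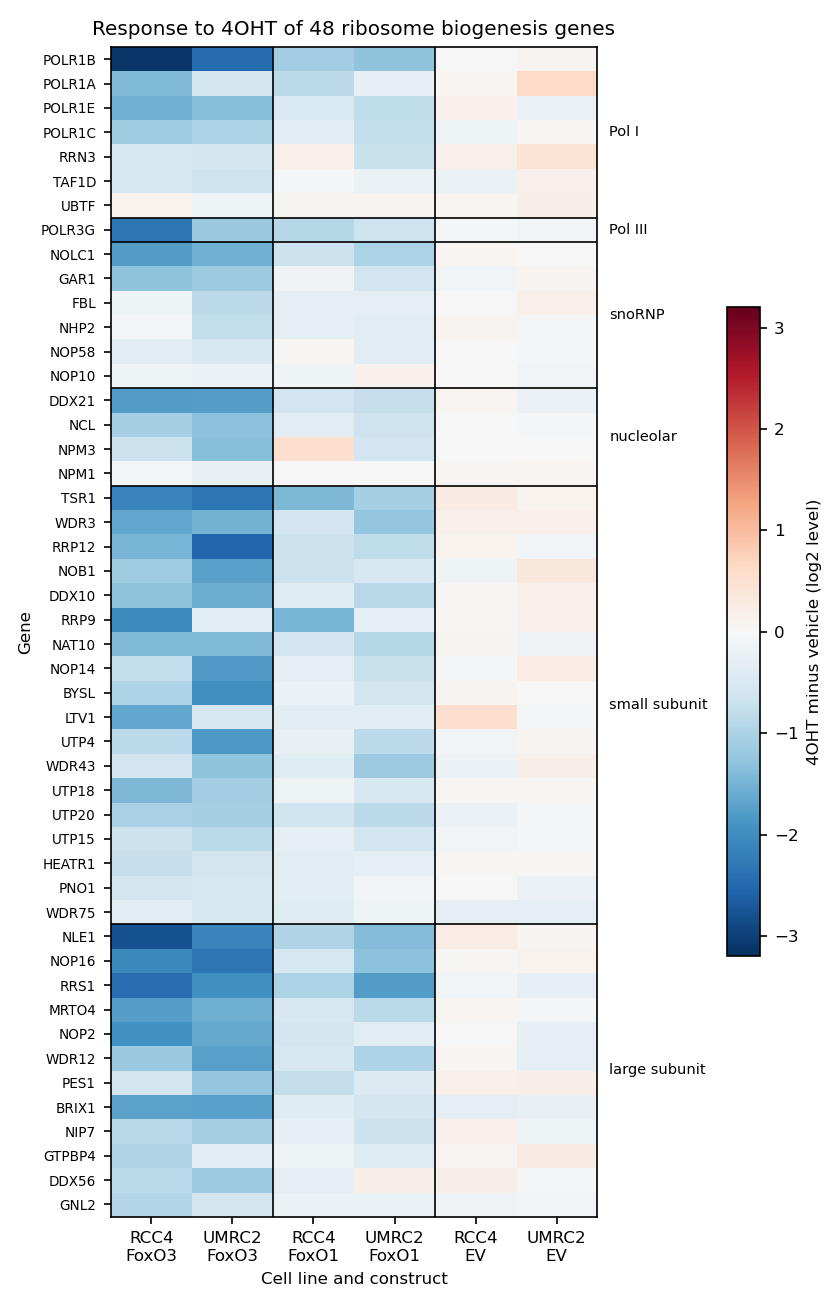
Response to 4OHT (log2 level with 4OHT minus vehicle, colour scale) of the 48 measured genes, 1 per row by group, in the 6 engineered lines, 1 per column. Both FoxO3 columns are blue over nearly all rows, the FoxO1 columns are paler, and the EV columns stay near 0, while UBTF, NPM1, NOP10 and WDR75 are pale in all of them.

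The first comparison asked what FoxO activation changed beyond 4OHT itself, with the mean of the FoxO3 and FoxO1 responses set against EV. Of the 48 members, 24 were lower and 0 higher (limma, adjusted p under 0.05 over all genes), against 4.73% of all genes lower and 3.09% higher. The members' median difference was -0.90, against -0.05 over all genes, and all 48 estimates were below 0. At an unadjusted p under 0.05, 39 were lower, against 13.6% of all genes. All 4 FoxO responses lay below both EV responses in 40 members and above both in 0, against 15.7% and 12% of all genes. Leaving out the UMRC2 EV pair made the count of 24 members 8, leaving out RCC4 EV or UMRC2 FoxO1 made it 15, averaging probe sets per gene made it 12, and the unscaled values made it 5. Of 16 called members named here with values in every array, averaging cost POLR1A, GAR1, NCL, WDR3, RRP12, NOB1, BYSL, NOP16 and PES1 the call. GAR1, NOB1 and BYSL have 1 probe set each, so their estimates stayed the same and only their adjusted p moved. For WDR3, NOP16 and PES1 the average took in a dim probe set. The count of members lower was 0 when dim genes were tested too, when the prior variance was held constant, or when FoxO1 and FoxO3 stood as replicates of each other. In these settings 31, 32 and 29 members had an unadjusted p under 0.05.

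Of the 7 RNA polymerase I genes, the subunits POLR1B and POLR1A fell under FoxO and the other 5 did not pass the test. The group's median was -0.75 for FoxO against EV, with 2 of 7 members past the test, and -1.002 for FoxO3 against EV, with 4 of 7. POLR1B, the second-largest subunit of the enzyme, was the member with the lowest value of all 48, as read through the probe sets used. With probe sets averaged its FoxO value was -1.47, above the -1.62 of RRS1, and still past the test (limma, adjusted p = 0.026). Its further bright probe sets gave -1.56, -0.43 and -1.84. With 4OHT POLR1B stood at 7.29 and 7.98 in RCC4 and UMRC2 FoxO3 cells, 9.16 and 9.15 in FoxO1 cells, and 10.35 and 10.41 in EV cells, while its vehicle levels lay between 10.29 and 10.45 in all 6. The 3 constructs did not overlap after 4OHT, and the gene fell by 2.05 ± 0.22 on the log2 scale under FoxO (limma, adjusted p = 0.00596), with -2.84 ± 0.26 under FoxO3 (adjusted p = 0.00145). Errors after ± are standard errors from limma, with n = 2 lines per construct.

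POLR1A, the largest and catalytic subunit, differed in level between the lines before any treatment. In RCC4 it read 8.23 with 4OHT in FoxO3 cells, 8.93 in FoxO1 cells and 9.71 in EV cells, against 9.63 to 9.77 with vehicle. In UMRC2 the 4OHT levels were 7.61 in FoxO3 cells, 7.84 in FoxO1 cells and 8.58 in EV cells, against 7.96 to 8.20 with vehicle. The gene changed by -1.11 ± 0.23 under FoxO (limma, adjusted p = 0.0295), although the UMRC2 EV line itself gained 0.61 and the call was lost without either EV pair or either FoxO1 pair. POLR1E and POLR1C, further subunits of which the second also serves RNA polymerase III, passed for FoxO3 alone with -1.42 ± 0.29 and -1.002 ± 0.26 (adjusted p = 0.0154 and 0.0363).

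The 3 factors of the list that bring the enzyme to ribosomal DNA, RRN3, UBTF and TAF1D, did not pass the test. RRN3, the initiation factor that couples polymerase I to growth signals, had 4OHT levels of 9.97 and 9.14 in RCC4 and UMRC2 FoxO3 cells, 10.40 and 9.20 in FoxO1 cells, and 10.71 and 9.87 in EV cells. Its vehicle levels were 10.24 to 10.55 in RCC4 and 9.43 to 9.92 in UMRC2, and its difference under FoxO was -0.74 ± 0.26 (limma, adjusted p = 0.135). Near-identical pseudogene copies of RRN3 exist, so its reading is uncertain. UBTF, which opens ribosomal DNA for transcription, stayed between 9.60 and 9.79 in the RCC4 arrays and between 10.04 and 10.49 in the UMRC2 arrays, with a difference of -0.09 ± 0.19 (adjusted p = 0.843). TAF1D, a subunit of the promoter selectivity factor, gave -0.34 ± 0.23 (adjusted p = 0.436). No test compared these factors with the subunits.

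POLR3G, a subunit found in 1 of the forms of RNA polymerase III, is the only member of that enzyme in the list. With 4OHT it stood at 6.22 and 7.06 in RCC4 and UMRC2 FoxO3 cells, 7.64 and 7.82 in FoxO1 cells, and 8.46 and 8.45 in EV cells, while vehicle levels lay between 8.24 and 8.55. All 4 FoxO levels lay below the EV levels. The difference passed for FoxO3, -1.66 ± 0.38 (limma, adjusted p = 0.0233), but not without the RCC4 FoxO3 or the RCC4 EV pair or with probe sets averaged (-0.99). For both fusions together it was -1.18 ± 0.33 (adjusted p = 0.0711). There a further bright probe set gave -1.32, and a dim one, with a mean level of 4.31, gave 0.45.

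**Figure D2:**
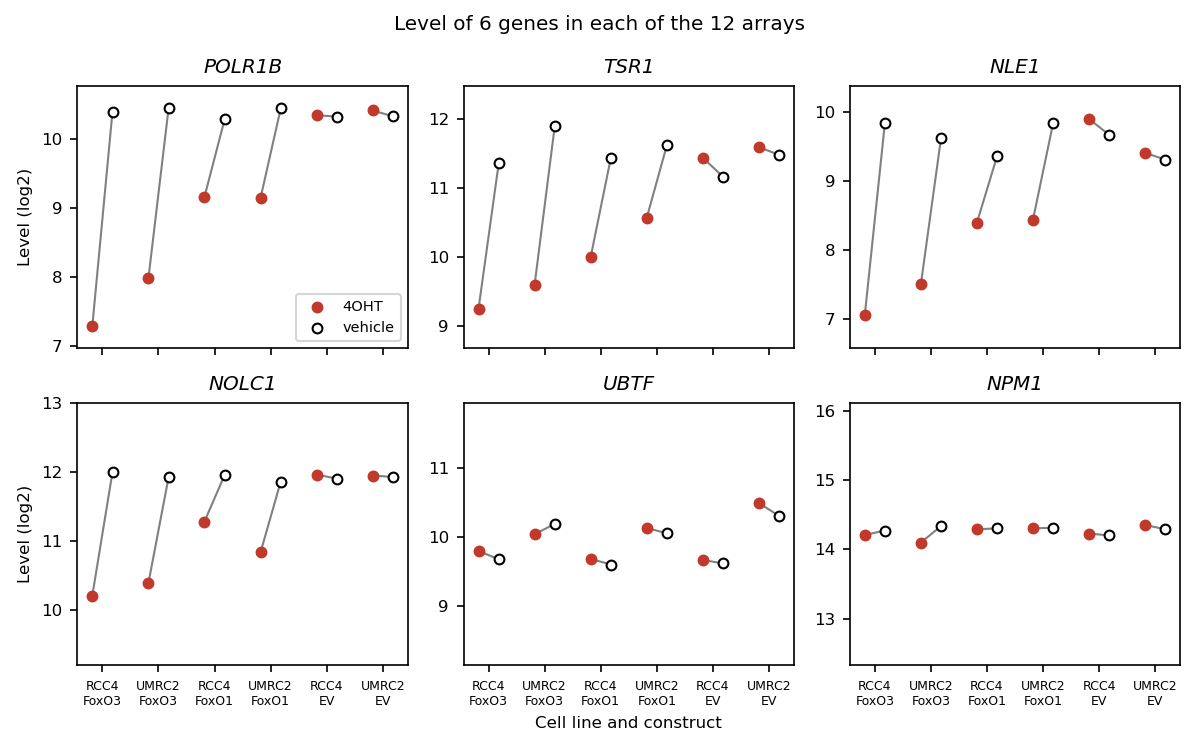
Level (log2) of POLR1B, TSR1, NLE1, NOLC1, UBTF and NPM1 in each of the 12 arrays, with 4OHT (filled) left of vehicle (open) and a line joining the arrays of 1 engineered line. The first 4 genes drop farthest in FoxO3 cells, less in FoxO1 cells and stay near vehicle in EV cells, while the UBTF and NPM1 points lie close together within a cell line.

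Among the snoRNP genes the assembly chaperone NOLC1 and the core protein GAR1 fell, and the other 4 core proteins did not pass the test. The group's median was -0.43 for FoxO against EV with 2 of 6 lower, and -0.50 for FoxO3 with the same count. NOLC1, a chaperone of both classes of snoRNP, read 10.21 and 10.39 with 4OHT in RCC4 and UMRC2 FoxO3 cells, 11.29 and 10.84 in FoxO1 cells, and 11.96 and 11.95 in EV cells, with vehicle levels of 11.87 to 12.00. Its levels fell in all 4 fusion lines, by 1.29 ± 0.16 on the log2 scale on average relative to EV (limma, adjusted p = 0.00688). GAR1, a core protein of the pseudouridine-guiding H/ACA class, had 4OHT levels of 9.76 and 10.18 in RCC4 and UMRC2 FoxO3 cells, 10.84 and 10.60 in FoxO1 cells, and 11.17 and 11.21 in EV cells, against 10.94 to 11.34 with vehicle. Its change of -0.79 ± 0.19 (adjusted p = 0.0488) was lost without 4 of the 6 pairs, namely both EV pairs, RCC4 FoxO3 and UMRC2 FoxO1.

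FBL, the methyltransferase of the box C/D class, was high in every array. It read 13.07 and 12.13 with 4OHT in RCC4 and UMRC2 FoxO3 cells, 13.02 and 12.68 in FoxO1 cells, and 13.19 and 13.12 in EV cells, against 12.96 to 13.31 with vehicle. Its difference was -0.46 ± 0.17 (limma, adjusted p = 0.158), with the lowest level in UMRC2 FoxO3 cells. NOP10, a small H/ACA core protein, stayed between 12.64 and 12.95 in all 12 arrays, with -0.05 ± 0.12 (adjusted p = 0.868). NOP58 and NHP2, core proteins of the C/D and the H/ACA class, had -0.26 and -0.40, neither past the test.

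Of the 4 abundant nucleolar genes, NCL and DDX21 fell under FoxO, and NPM1 and NPM3 did not pass the test. NCL, which codes for nucleolin, stood at 13.09 and 12.72 with 4OHT in RCC4 and UMRC2 FoxO3 cells, 13.75 and 13.39 in FoxO1 cells, and 14.19 and 13.93 in EV cells, with vehicle levels of 13.95 to 14.17. DDX21, an RNA helicase that acts in polymerase I transcription and rRNA processing, stood at 11.49 and 11.67 with 4OHT in RCC4 and UMRC2 FoxO3 cells, 12.62 and 12.73 in FoxO1 cells, and 13.28 and 13.34 in EV cells, with vehicle levels of 13.22 to 13.52. In both genes every FoxO level after 4OHT lay below every EV level. NCL changed by -0.84 ± 0.09 (limma, adjusted p = 0.00596) and DDX21 by -1.16 ± 0.11 on the log2 scale (adjusted p = 0.00438), though 1 further bright probe set of NCL gave 0.06 and averaged probe sets gave -0.39.

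NPM1 codes for the nucleolar chaperone nucleophosmin. All 12 of its levels lay between 14.10 and 14.35, and the difference was -0.13 ± 0.08 (limma, adjusted p = 0.411). These levels are near the top of the scale, where an array can compress differences, and NPM1 has many pseudogene copies, so its reading is uncertain. Other bright probe sets of NPM1, with mean levels of 13.85 and 13.25, gave larger drops under FoxO, -0.45 and -0.43. NPM3, a relative of NPM1, read 9.61 and 8.76 with 4OHT in RCC4 and UMRC2 FoxO3 cells, 10.16 and 9.57 in FoxO1 cells, and 10.52 and 10.18 in EV cells. The difference of NPM3 was -0.53 ± 0.25 under FoxO (limma, adjusted p = 0.255) and passed for FoxO3 alone, -1.03 ± 0.29 (adjusted p = 0.0484). It was the member with the highest FoxO response, 0.55 in RCC4 FoxO1 cells, where the vehicle level of 9.61 was below the 10.13 to 10.50 of the other lines.

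Small-subunit factors made up the largest group, and 10 of its 18 members were lower under FoxO than under EV, with a median of -0.98. For FoxO3 alone 12 of 18 were lower, with a median of -1.35. TSR1, a late factor of the small subunit, had 4OHT levels of 9.25 and 9.60 in RCC4 and UMRC2 FoxO3 cells, 10.00 and 10.57 in FoxO1 cells, and 11.44 and 11.59 in EV cells, against 11.16 to 11.90 with vehicle. All 4 FoxO levels lay below all vehicle and EV levels, and the gene fell by 1.92 ± 0.18 on the log2 scale (limma, adjusted p = 0.00438), while averaged probe sets gave -1.17. WDR3, a part of the small-subunit processome, read 9.002 and 8.98 with 4OHT in RCC4 and UMRC2 FoxO3 cells, 9.92 and 9.11 in FoxO1 cells, and 10.72 and 10.55 in EV cells, against 10.34 to 10.68 with vehicle. The change of WDR3 was -1.43 ± 0.21 (adjusted p = 0.0115), lost without the UMRC2 EV pair and with probe sets averaged (-0.86). Its other probe set was dim, with a mean level of 5.20 and a difference of -0.29.

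Among the later factors of the small subunit, RRP12 and NOB1 also fell. RRP12, which takes part in the export of both subunits, had 4OHT levels of 8.14 and 6.82 in RCC4 and UMRC2 FoxO3 cells, 9.06 and 8.60 in FoxO1 cells, and 9.50 and 9.65 in EV cells, against 9.35 to 9.75 with vehicle. Its change was -1.39 ± 0.26 (limma, adjusted p = 0.0217), lost without either EV pair, and its other 4 bright probe sets gave -2.66, -0.45, 0.20 and 0.83. With probe sets averaged it was -0.69 and not past the test. NOB1, the nuclease that makes the last cut of 18S rRNA, read 9.45 and 8.52 with 4OHT in RCC4 and UMRC2 FoxO3 cells, 9.94 and 9.88 in FoxO1 cells, and 10.25 and 10.61 in EV cells, against 10.25 to 10.63 with vehicle. The change of NOB1 was -1.14 ± 0.24 (adjusted p = 0.0347), lost without the UMRC2 EV pair or either FoxO1 pair.

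DDX10, a helicase (-1.14), NAT10, the acetyltransferase of 18S rRNA (-1.08), BYSL, a late factor (-0.98), and the processome members UTP4 (-0.94), UTP18 (-0.84) and UTP20 (-0.77) completed the 10 that passed. WDR75, of the subcomplex that joins the precursor first, had the value nearest 0 in the group. It read 9.68 and 9.05 with 4OHT in RCC4 and UMRC2 FoxO3 cells, 9.77 and 9.47 in FoxO1 cells, and 9.89 and 9.60 in EV cells, against 9.61 to 10.21 with vehicle. Since its EV responses of -0.32 and -0.29 were about as low as its FoxO responses of -0.13 to -0.56, the difference was -0.05 ± 0.20 (limma, adjusted p = 0.917). HEATR1 and WDR43 had -0.53 and -0.87 under FoxO without passing (adjusted p = 0.0662 and 0.11). PNO1, the partner of NOB1, had -0.29 (adjusted p = 0.347) through a probe set with a mean level of 10.85. Its further bright probe sets, with mean levels of 10.77 and 6.88, gave -0.84 and -0.08, so its reading is uncertain.

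Of the large-subunit factors, 8 of 12 were lower under FoxO than under EV (median -0.97) and 11 of 12 under FoxO3 (median -1.41). NLE1, which binds the remodelling enzyme of the large-subunit precursor, had 4OHT levels of 7.06 and 7.51 in RCC4 and UMRC2 FoxO3 cells, 8.40 and 8.45 in FoxO1 cells, and 9.90 and 9.41 in EV cells, against 9.31 to 9.85 with vehicle. It fell by 1.98 ± 0.27 on the log2 scale (limma, adjusted p = 0.00906), and every FoxO level after 4OHT lay below the lowest vehicle level, while averaged probe sets gave -1.30. NOP16, a nucleolar large-subunit factor, read 9.64 and 9.40 with 4OHT in RCC4 and UMRC2 FoxO3 cells, 11.12 and 10.31 in FoxO1 cells, and 11.62 and 11.93 in EV cells, against 11.58 to 11.83 with vehicle. Its change was -1.63 ± 0.19 (adjusted p = 0.00629), but -0.58 and no longer past the test with probe sets averaged (adjusted p = 0.248). The further bright probe sets of NOP16 gave -1.51 and -0.15, and a dim one gave 0.98.

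RRS1, which helps to place the 5S rRNA, had 4OHT levels of 9.16 and 8.93 in RCC4 and UMRC2 FoxO3 cells, 10.67 and 9.22 in FoxO1 cells, and 11.61 and 10.90 in EV cells, against 10.88 to 11.69 with vehicle. It fell by 1.62 ± 0.25 on the log2 scale (limma, adjusted p = 0.0127), a call lost without the UMRC2 EV pair. PES1, which works in a complex with WDR12 and BOP1, read 10.10 and 9.59 with 4OHT in RCC4 and UMRC2 FoxO3 cells, 10.24 and 10.35 in FoxO1 cells, and 10.88 and 10.97 in EV cells, against 10.70 to 10.99 with vehicle. Its change of -0.94 ± 0.22 (adjusted p = 0.0457) was lost without either EV pair or the RCC4 FoxO1 pair, and with probe sets averaged (-0.47). The only other probe set of PES1 lay at the floor, with a mean level of 4.17 and a difference of 0. WDR12, the partner of PES1, gave -0.996 ± 0.14 (adjusted p = 0.00933). MRTO4, a placeholder for a stalk protein of the ribosome, gave -1.20 ± 0.19 (adjusted p = 0.0137).

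GNL2, a GTPase of late large-subunit maturation, had the value nearest 0 in its group. Its 4OHT levels were 9.28 and 9.78 in RCC4 and UMRC2 FoxO3 cells, 9.91 and 10.19 in FoxO1 cells, and 10.13 and 10.50 in EV cells, against 10.13 to 10.60 with vehicle. The difference was -0.38 ± 0.18 (limma, adjusted p = 0.255), and for FoxO3 alone, where GNL2 was the 1 member of the group that did not pass, -0.65 ± 0.21 (adjusted p = 0.074). The helicase gene DDX56, at -0.61 ± 0.20 (adjusted p = 0.113), has 1 other bright probe set at 0.50. Over all members, 39 of 43 further bright probe sets, from 25 genes, had the same sign as the one used.

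**Figure D3:**
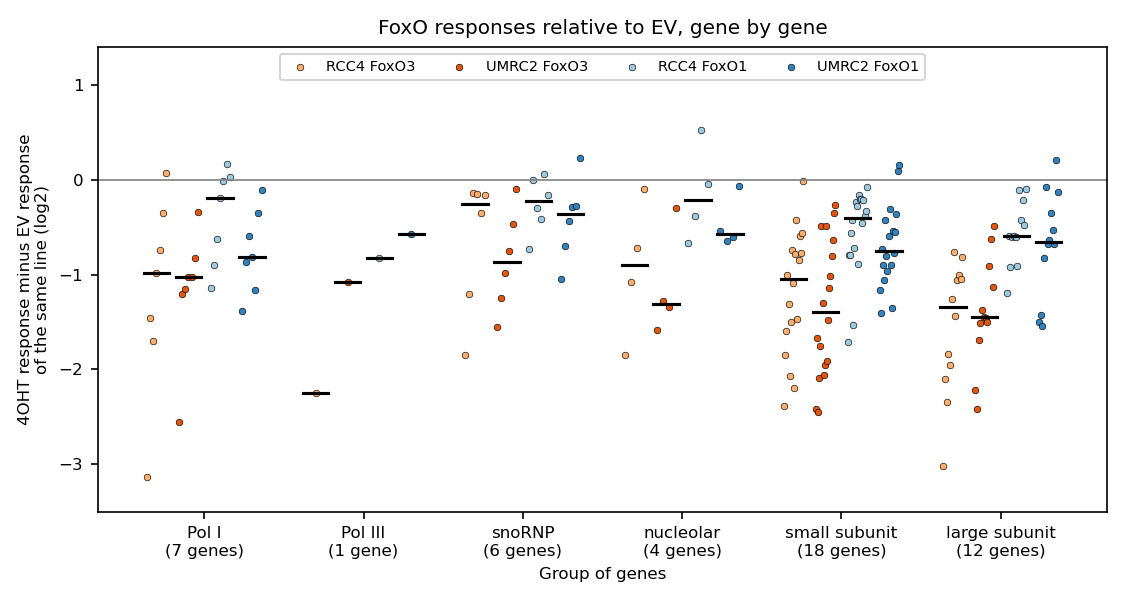
Response to 4OHT minus the EV response of the same line (log2, vertical axis) for each gene (points) in RCC4 and UMRC2 FoxO3 and FoxO1 cells, by group of genes, with the median of each as a bar. Nearly all points lie below 0, and in each group and line the FoxO3 median lies below the FoxO1 median.

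For FoxO3 against EV, 33 of 48 members were lower and 0 higher, against 10% and 6.6% of all genes, with a median of -1.29 against -0.07. At an unadjusted p under 0.05, 43 were lower (18.1% of all genes). Both FoxO3 responses lay below both EV responses in 47 members and above both in 0, against 32.5% and 24.7% of all genes. For FoxO1 against EV, 0 members were called lower or higher, against 0% and 0.084% of all genes, though 21 were lower at an unadjusted p under 0.05 in limma (5.43% of all genes). The members' median under FoxO1 was -0.56, against -0.02 over all genes, and 46 of 48 estimates were below 0. Both FoxO1 responses lay below both EV responses in 40 members and above both in 0, against 23.9% and 20.4% of all genes. The member nearest to the threshold was TSR1, with -1.44 ± 0.20 (adjusted p = 0.0622).

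These counts depend on single pairs. The FoxO3 count was lower when the RCC4 FoxO3 pair, whose arrays differ in deposited level, or the UMRC2 EV pair was left out. On the unscaled values the FoxO3 count was 15. It was 0 when dim genes were tested too or the prior variance was held constant, where 37 members had an unadjusted p under 0.05 in either case. The FoxO1 count was 6 without either FoxO3 pair, 1 with arrays scaled to a common median and 1 with the higher floor. The values of FoxO3 against EV and of FoxO1 against EV share the EV arrays, so the order of their estimates is not independent of them.

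**Figure D4:**
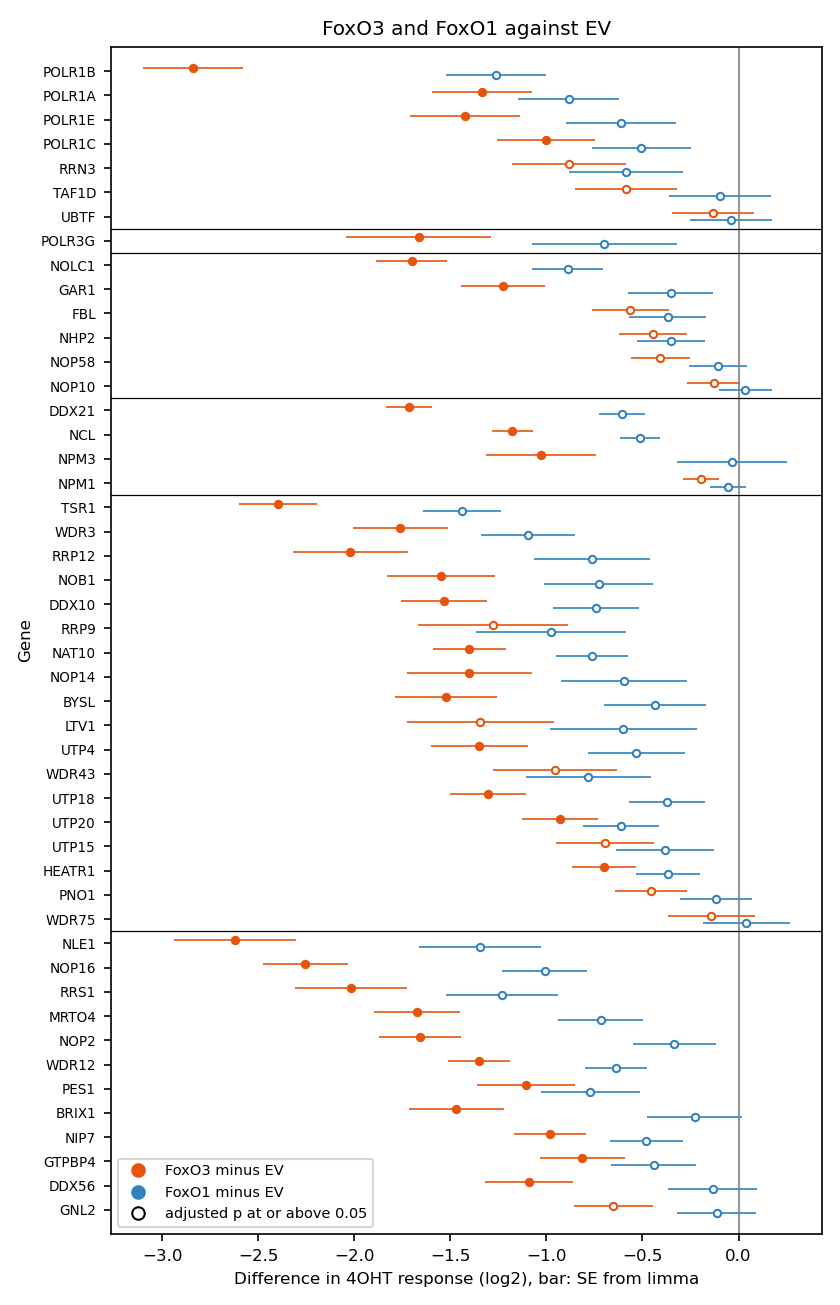
Difference from EV in the response to 4OHT (log2, horizontal axis) for FoxO3 (orange) and FoxO1 (blue), 1 gene per row by group, with limma's standard error as bars; filled points have an adjusted p under 0.05. All 48 FoxO3 points lie left of 0 and 33 are filled, while 0 FoxO1 points are filled.

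The fusions were then compared with each other, which leaves EV out of the difference. FoxO3 gave the lower response for 10 of 48 members and the higher for 0 (limma), against 3.65% and 2.16% of all genes, with a median of -0.69 against -0.06. All 48 estimates were below 0, and 28 members were lower at an unadjusted p under 0.05 (13.1% of all genes). Both FoxO3 responses lay below both FoxO1 responses in 37 members and above both in 0, against 27.4% and 20.6% of all genes. Within a line, the FoxO3 response was the lower in 42 of 48 members in RCC4 and 46 in UMRC2. The order FoxO3 below FoxO1 below EV held for 39 members in RCC4, 42 in UMRC2 and 35 in both, against 12.9% of all genes in both.

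The largest of these differences was that of POLR1B, -1.58 ± 0.26 (limma, adjusted p = 0.0224), with FoxO3 responses of -3.11 and -2.47 in RCC4 and UMRC2 against FoxO1 responses of -1.12 and -1.30. With probe sets averaged the difference of POLR1B was -1.11 and not past the test (adjusted p = 0.0687). NOP2, the methyltransferase of 28S rRNA, had 4OHT levels of 8.94 and 9.38 in RCC4 and UMRC2 FoxO3 cells, 10.28 and 10.60 in FoxO1 cells, and 10.77 and 10.81 in EV cells, against 10.76 to 11.07 with vehicle. Its FoxO3 response minus its FoxO1 response was -1.32 ± 0.21 (adjusted p = 0.0221), and FoxO1 levels stood nearer to EV than to FoxO3 in both lines. BRIX1, of the early large-subunit precursor, read 7.49 and 7.96 with 4OHT in RCC4 and UMRC2 FoxO3 cells, 8.59 and 8.77 in FoxO1 cells, and 9.09 and 9.17 in EV cells, against 8.98 to 9.70 with vehicle, and differed by -1.24 ± 0.25 (adjusted p = 0.034).

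NOP16 differed by -1.25 ± 0.22 between the fusions (limma, adjusted p = 0.0253; -0.59 with probe sets averaged) and DDX21 by -1.11 ± 0.12 (adjusted p = 0.00877). TSR1, UTP18, NOLC1, WDR12 and NCL, with -0.96 to -0.66, completed the 10. Leaving out RCC4 FoxO1 made this count 0, leaving out UMRC2 FoxO1 made it 2, and leaving out either EV pair made it 17. With probe sets averaged per gene it was 3, and it was 0 on the unscaled values, with dim genes included, or at a constant prior. The fusion transcript, read through ESR1, was higher in the FoxO3 than in the FoxO1 line of each cell line, by the medians given above, and its part in these differences was not tested.

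In EV cells, which lack a FoxO fusion, no member passed the test for a response to 4OHT. Limma called 0 of 48, with 0 at an unadjusted p under 0.05, against 0% of all genes called and 2.37% unadjusted. The members' estimates ran from -0.31 for WDR75 to 0.34 for POLR1A. The direction in UMRC2 EV cells depends on the scaling, since 23 members lay below 0 with quantile normalisation and 7 with arrays scaled to a common median, where the median of all genes moved to 0.16.

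Scaling also bears on the fusion lines. As deposited, the median of all genes stood at -0.88 in RCC4 FoxO3 cells and -0.30 in UMRC2 FoxO1 cells, with member medians of -1.94 and -0.91. Members below the median of all genes numbered 45 and 48 in RCC4 and UMRC2 FoxO3 cells and 43 and 44 in FoxO1 cells with quantile normalisation, and the same counts came with a common median, which differs from the deposited scale by a shift per array. Of the 48 members, 0 were at the floor in any array.

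RCC4 and UMRC2 were compared for the size of the FoxO effect, with the FoxO3 and FoxO1 pairs of a line as its replicates. Limma called 0 of 48 members, with 0 at an unadjusted p under 0.05, against 0% and 2.36% of all genes. Standard errors here ran to 1.29, so sizeable differences could pass unseen. RRP9, a protein of the U3 snoRNP, had the widest gap, with RCC4 responses of -2.03 under FoxO3 and -1.49 under FoxO1, and UMRC2 responses of -0.35 and -0.29, a difference of -1.34 ± 0.59 relative to EV (adjusted p = 1). Its vehicle levels were 9.91 to 10.22 in RCC4 and 7.95 to 8.15 in UMRC2, so the 4OHT levels in FoxO3 cells, 7.96 in RCC4 and 7.60 in UMRC2, ended closer together than the vehicle levels began.

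As a description across the 48 members, which are not independent replicates, the RCC4 and UMRC2 responses to FoxO3 correlated with Pearson r = 0.653 and Spearman rho = 0.623 (r = 0.55 over all genes), and those to FoxO1 with r = 0.444 and rho = 0.5 (r = 0.246 over all genes). These pairs share no array.

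**Figure D5:**
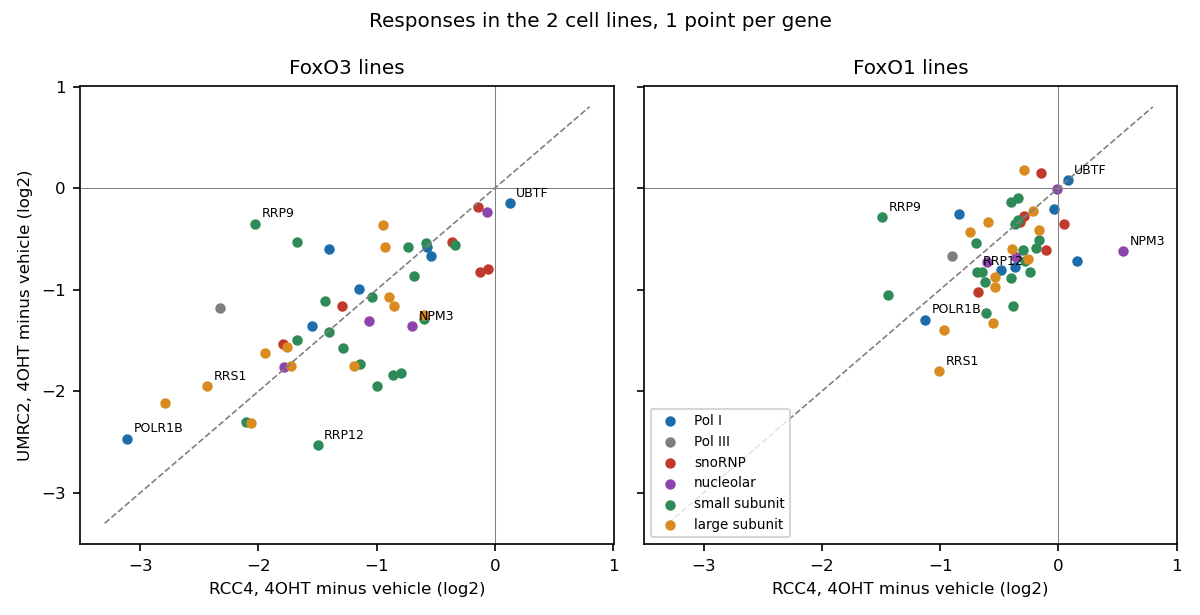
Response to 4OHT (log2) in RCC4 (horizontal) against UMRC2 (vertical) for FoxO3 cells (left) and FoxO1 cells (right), 1 point per gene coloured by group, with the line of equality dashed. POLR1B and RRS1 lie low in both lines, RRP9 lies low in RCC4 alone, and UBTF lies near 0.

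Before 4OHT no member passed the test of the fusion lines against EV, while about as large a share as of all genes differed between the cell lines. FoxO3 and FoxO1 lines were not tested against each other with vehicle. With vehicle, limma called 0 of 48 members between the fusion lines and EV, against 0% of all genes, with 1 member, TSR1, at an unadjusted p under 0.05 (0.26 ± 0.09, adjusted p = 0.541), against 8.58% of all genes. Between the cell lines 16 members were higher and 7 lower in RCC4 than in UMRC2, against 26.6% and 23.7% of all genes, so the members' share was near that of all genes. RRP9 (1.97 ± 0.13, adjusted p = 4.64e-05), POLR1A (1.60 ± 0.12, adjusted p = 0.000101, but 0.35 with probe sets averaged), RRN3 (0.75 ± 0.15, adjusted p = 0.00633) and NOP14, a small-subunit factor (0.65 ± 0.09, adjusted p = 0.00147), were higher in RCC4. BYSL, lower in RCC4, differed by -0.65 ± 0.11 (adjusted p = 0.00308), with vehicle levels of 9.46 to 9.96 in RCC4 and 10.14 to 10.43 in UMRC2. Cell line and deposited array level cannot be told apart in these 6 arrays, and as deposited 45 members were higher in RCC4.

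Beyond the 48, 104 other genes of the pathway were tested, and 18 of them were lower and 0 higher under FoxO than under EV (17.3%, against 4.73% of all genes lower), with a median of -0.49. Under FoxO3 40 were lower (38.5%, against 10% of all genes), under FoxO1 0, and 10 were lower under FoxO3 than under FoxO1 (9.62%, against 3.65%). The largest were URB2 (-1.95 ± 0.24, limma, adjusted p = 0.00695) and PAK1IP1 (-1.61 ± 0.21, adjusted p = 0.00765), both large-subunit factors, EXOSC2, a cap subunit of the RNA exosome (-1.61 ± 0.24, adjusted p = 0.0107, but -1.06 and not past the test with probe sets averaged), and POLR1G, another subunit of polymerase I (-1.50 ± 0.22, adjusted p = 0.0105). By role 7 of 35 small-subunit factors, 6 of 33 large-subunit factors, 2 of 8 polymerase I genes, 2 of 16 polymerase III genes and 1 of 12 exosome genes were lower under FoxO, to be read against the same 4.73% of all genes.

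MYC, a known activator of ribosome biogenesis genes, moved with the members. Its 4OHT levels were 8.99 and 11.08 in RCC4 and UMRC2 FoxO3 cells, 10.32 and 10.45 in FoxO1 cells, and 11.78 and 12.66 in EV cells, against 11.73 to 12.07 with vehicle in RCC4 and 12.44 to 12.73 in UMRC2. It fell by 2.20 ± 0.31 on the log2 scale under FoxO (limma, adjusted p = 0.00993). Between the fusions its difference was -0.52 ± 0.36 (adjusted p = 0.478), and in UMRC2 its response was -1.65 under FoxO3 against -1.99 under FoxO1, an order that 46 of the 48 members did not share. Members with CACGTG in their promoter window had a median of -0.94 under FoxO with 9 of 17 lower, and those without it -0.75 with 12 of 25 lower, ranges that overlap from -0.05 to -1.98. Under FoxO3 the called share ran the other way, with 10 of 17 lower (median -1.30) where the window holds CACGTG and 18 of 25 (median -1.09) where it does not. The part of MYC in the members' change was not tested.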

How the data were processed

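Total RNA was measured on 12 Affymetrix arrays, 1 per combination of line, construct and treatment. The deposited values are intensities per probe set on a linear scale, made by the authors with MAS5 per the submitters' processing notes, with version and scaling target not given in the sources used here. MAS5 values of single arrays share no common scale, which is why arrays were quantile-normalised on log2. Values under the 20th percentile (18.0, log2 4.17) were raised to it. Of 54675 probe sets, 41097 had 1 symbol, 1801 several and 11777 none listed. A gene entered the test if 2 or more arrays put it at or above their median.

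Limma 3.58.1 (R 4.3.3) took the 6 responses with terms for construct and for line, leaving 2 residual and 5.47 prior degrees of freedom, and let the prior variance depend on expression level. Vehicle levels and the line difference had fits of their own. P-values are two-sided, Benjamini-Hochberg adjusted over all genes tested, and none measures the spread between cultures. In the fit of the responses the spread is how far the lines disagree on the differences between constructs. In the fit of the line difference it is the gap between FoxO3 and FoxO1 within a line, which includes any real difference between the fusions. The fit was tested on simulated data. Alternatives varied scaling, floor, filter, probe set, prior, terms and pairs. The members, lists and rules were chosen with earlier results of these data known. Named are a fixed set of members, up to 3 of each group past the test by size, the member nearest to or above 0 in each group, and up to 5 per other comparison. UTP4, UTP18, UTP20, WDR12, WDR43, HEATR1, MRTO4, POLR1C, POLR1E, TAF1D, NOP58, NHP2, NPM3, DDX10, DDX56, NAT10 and PNO1 were added after their values were seen.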

Additional observations from a re-analysis of the deposited data

Results flagged for a closer look

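The response to FoxO3 differed from that to FoxO1, by a test of the difference itself in limma, for 10 of the 48 members, each lower under FoxO3. The differences on the log2 scale were -1.58 for POLR1B (adjusted p = 0.0224), -1.32 for NOP2 (adjusted p = 0.0221), -1.25 for NOP16 (adjusted p = 0.0253), -1.24 for BRIX1 (adjusted p = 0.034) and -1.11 for DDX21 (adjusted p = 0.00877). They were -0.96 for TSR1 (adjusted p = 0.0393), -0.93 for UTP18 (adjusted p = 0.0403), -0.81 for NOLC1 (adjusted p = 0.0483), -0.71 for WDR12 (adjusted p = 0.0476) and -0.66 for NCL (adjusted p = 0.0206). Of the 8 of these for which each pair was left out in turn, 0 were called in every such fit.

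UBTF responses relative to EV had opposite signs in the lines, at 0.07 and 0.03 in RCC4 and -0.34 and -0.11 in UMRC2 for FoxO3 and FoxO1. The difference of their means was 0.28 ± 0.50 in log2 units (limma, adjusted p = 1), so the test did not show a difference between the lines.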

How the results depend on the processing

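No further paired analysis was possible, because the labels carry no replicate numbers to block on. The fit already pairs 4OHT with vehicle within each engineered line and has cell line as a term. Of 24 members lower under FoxO, 5 were left on the unscaled values and 12 with probe sets averaged per gene. The number was 0 with dim genes included, with the prior variance held constant or with the fusions as replicates, and 8 to 29 when 1 pair was left out. Of 33 under FoxO3, 15 were left unscaled and 0 with dim genes or a constant prior, and 21 to 34 when 1 pair was left out. The FoxO1 count of 0 became 1 with a common median or the higher floor, and 0 to 6 when 1 pair was left out. For FoxO3 against FoxO1, 10 became 0 unscaled, with dim genes or at a constant prior, 3 with averaged probe sets, and 0 to 17 when 1 pair was left out. The 23 that differed between lines with vehicle became 45 unscaled, 15 at a constant prior, and 19 to 23 when 1 array was left out. The causes were not tested. Counts for EV, the line difference and vehicle constructs stayed 0 under every alternative run, and the line difference could not be fitted without an EV pair.

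Of 16 named members lower under FoxO, 7 (POLR1B, NOLC1, NCL, DDX21, TSR1, NLE1, NOP16) were called whichever pair was left out, of which NCL and NOP16 lost the call with averaged probe sets. Under FoxO3 it was 11 of 19, and for FoxO3 against FoxO1 0 of 8. Signs turned in 26 values of single genes under an alternative, and no turned value passed the test. Of the results concerned, BYSL between lines alone was past the test in the main fit. With 1 pair left out, FoxO values ran from -0.22 to 0.053 for UBTF, -0.16 to 0.065 for NOP10 and -0.14 to 0.042 for WDR75. FoxO1 values ran from -0.18 to 0.0998 for UBTF, -0.12 to 0.0035 for NPM1, -0.14 to 0.22 for NOP10 and -0.14 to 0.22 for WDR75. FoxO3 values ran from -0.30 to 0.038 for UBTF and -0.33 to 0.043 for WDR75. FoxO3 against FoxO1 ran from -0.80 to 0.21 for RRN3, -0.26 to 0.076 for UBTF, -0.59 to 0.20 for FBL, -0.75 to 0.083 for PES1, -0.35 to 0.015 for NOP10, -0.37 to 0.0023 for WDR75 and -0.82 to 0.21 for RRP9. Under FoxO1, UBTF was 0.055 with averaged probe sets, NOP10 was -0.12 unscaled and -0.0028 with a common median, and WDR75 was -0.15 and -0.028 under the same settings. BYSL between lines was 0.077 unscaled.

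With 1 array per combination, no result measures the spread between cultures, and the comparisons of constructs rest on 2 lines.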
